A study of Mus musculus with 10 samples.

Results

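The extracellular matrix genes described here are the protein-coding genes named as collagen chains (Col), laminin chains (Lama, Lamb, Lamc), secreted proteases of the ADAMTS family or fibulins (Fbln), together with Ccdc80, Ccbe1, Tnc, Vcan, Ncan, Bcan, Fn1, Nid1, Sparc and Hspg2. The choice was made by name, with earlier results of these data known, and gave 63 of the 15899 genes measured, of which 12288 are protein-coding. The 63 genes are 25 collagen chains, 16 ADAMTS proteases, 9 laminin chains, 5 glycoproteins, 3 fibulins, 3 lecticans and 2 other basement membrane proteins. Of 88 genes listed for these families, the remaining 25 (Col1a1, Col3a1, Col4a1 and Col6a1 among them) were not analysed here.

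RNA bound in anti-FLAG precipitates was measured by RIP-seq (RNA immunoprecipitation and sequencing) in 10 libraries, all from neurosphere cultures. Neurospheres are floating aggregates of neural stem cells (NSCs) and their progeny, here grown with EGF and FGF from the subependymal zone (SEZ), the neurogenic niche beside the lateral ventricle, of mice aged 10 weeks. FLAG cultures were homozygous Mex3aFLAG/FLAG, in which the endogenous RNA-binding protein MEX3A carries a FLAG tag at its C-terminus, and WT cultures were Mex3a+/+ of the same background, which have no tag and give the nonspecific background of the antibody. The precipitation was made after crosslinking (2 FLAG and 2 WT libraries) or in native conditions without crosslinking (3 FLAG and 3 WT libraries). The study's methods call the replicates biological, and the labels do not say which culture or animal each library came from, so p-values measure the spread between these libraries. A fold change below is FLAG over WT, so a lower value means less of an RNA in the tagged precipitate than in the background. Input RNA was not used here, so a change in precipitation and a change in the RNA content of the cultures cannot be told apart, and neither can fewer cells of a type and less RNA per cell.

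The extracellular matrix of the adult SEZ is made up of basement membranes (laminins, collagen IV chains, nidogen and perlecan) and of a softer hyaluronan matrix that holds lecticans and tenascin-C. Basement membranes reach from blood vessels to the surface of the stem cells as branched structures known as fractones, which bind growth factors. Collagens and laminins are assembled in the secretory pathway from long, repetitive chains, and ADAMTS proteases trim procollagens or cut lecticans.

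Values are the deposited log2 values, whose distribution is nearly the same in each library, so the depth and the counting error of a value are unknown. FLAG native replicates 1 and 3 held 329 and 178 genes at their lowest value, among them 2 and 1 of the matrix genes, while each other library held at most 3. Mex3a itself lay between 3.92 and 6.10 in FLAG libraries and between 2.75 and 3.52 in WT libraries (log2 fold change 1.73 ± 0.37 SE, adjusted p = 0.079 by limma with Benjamini-Hochberg adjustment). Among markers fixed for the cells that cultures could hold, 3 of 4 astrocyte genes and 3 of 5 endothelial genes were measured. The stem and glial cell genes Slc1a3 (7.99 to 9.10), Nes (6.85 to 8.56) and Fabp7 (6.14 to 8.89) were well above the median gene in all 10 libraries. Pericyte and fibroblast markers (6 genes) and neuroblast markers (4 genes) were not among the genes analysed here, so those cell types could not be checked. Summed on the linear scale, the 3 microglia markers measured (Cx3cr1, P2ry12 and Csf1r) reached 31.9 to 33.9 in FLAG and 28.8 to 36.6 in WT libraries. The endothelial markers (Kdr, Pecam1, Tek) reached 4.22 to 5.44 in FLAG and 6.02 to 9.23 in WT libraries, and the astrocyte markers (Aldoc, Aqp4, Slc1a2) reached 141 to 254 in FLAG and 83.8 to 139 in WT libraries. None of these 6 markers was called. The part of cell composition in the results below was not tested.

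Calls needed an adjusted p under 0.05, taken across the whole matrix, and a fold change beyond 0.58 on the log2 scale in either direction. In the fit of all 10 libraries, which had protocol as its covariate, 4 of the 63 matrix genes were called. Ccdc80, a secreted matrix protein, was higher in FLAG (1 gene, against 0.264% of all genes), whereas Fbln2 (fibulin-2), Ccbe1 (a collagen- and calcium-binding protein of lymphatic growth) and Adamts12 (a secreted protease) were lower (3 genes, against 0.233% of all genes). Ccdc80 and Ccbe1 were chosen by single name with earlier results known, so these counts are no test of the set. In native libraries alone Fbln2 and Ccbe1 were called lower (2 genes, against 0.107% of all genes) and none was called higher (background 0.0%). No matrix gene was called lower in native libraries in a single fit of 4 groups (0.0189% of all genes). The same held without FLAG native replicate 1 or 3 or WT native replicate 1 or 3 (between 0.0% and 0.0252% of all genes). In crosslinked libraries limma called no matrix gene in either direction (background 0.0% and 0.0%), and at an unadjusted p under 0.05 with the same fold threshold there were 1 higher (background 2.78%) and 3 lower (background 0.987%). Same-numbered libraries of a genotype deviated together. With genotype and number as a random block (consensus correlation 0.327) Fbln2, called lower, was the 1 matrix gene still called over all libraries (0.0503% of all genes lower). With FLAG native replicates 1 and 3 left out together no matrix gene was called over all libraries (0.0503% of all genes higher and 0.0629% lower). Without FLAG native replicate 2 the native libraries gave 5 matrix genes higher (against 9.12% of all genes in that fit) and 10 lower (against 10.8%).

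**Figure D1:**
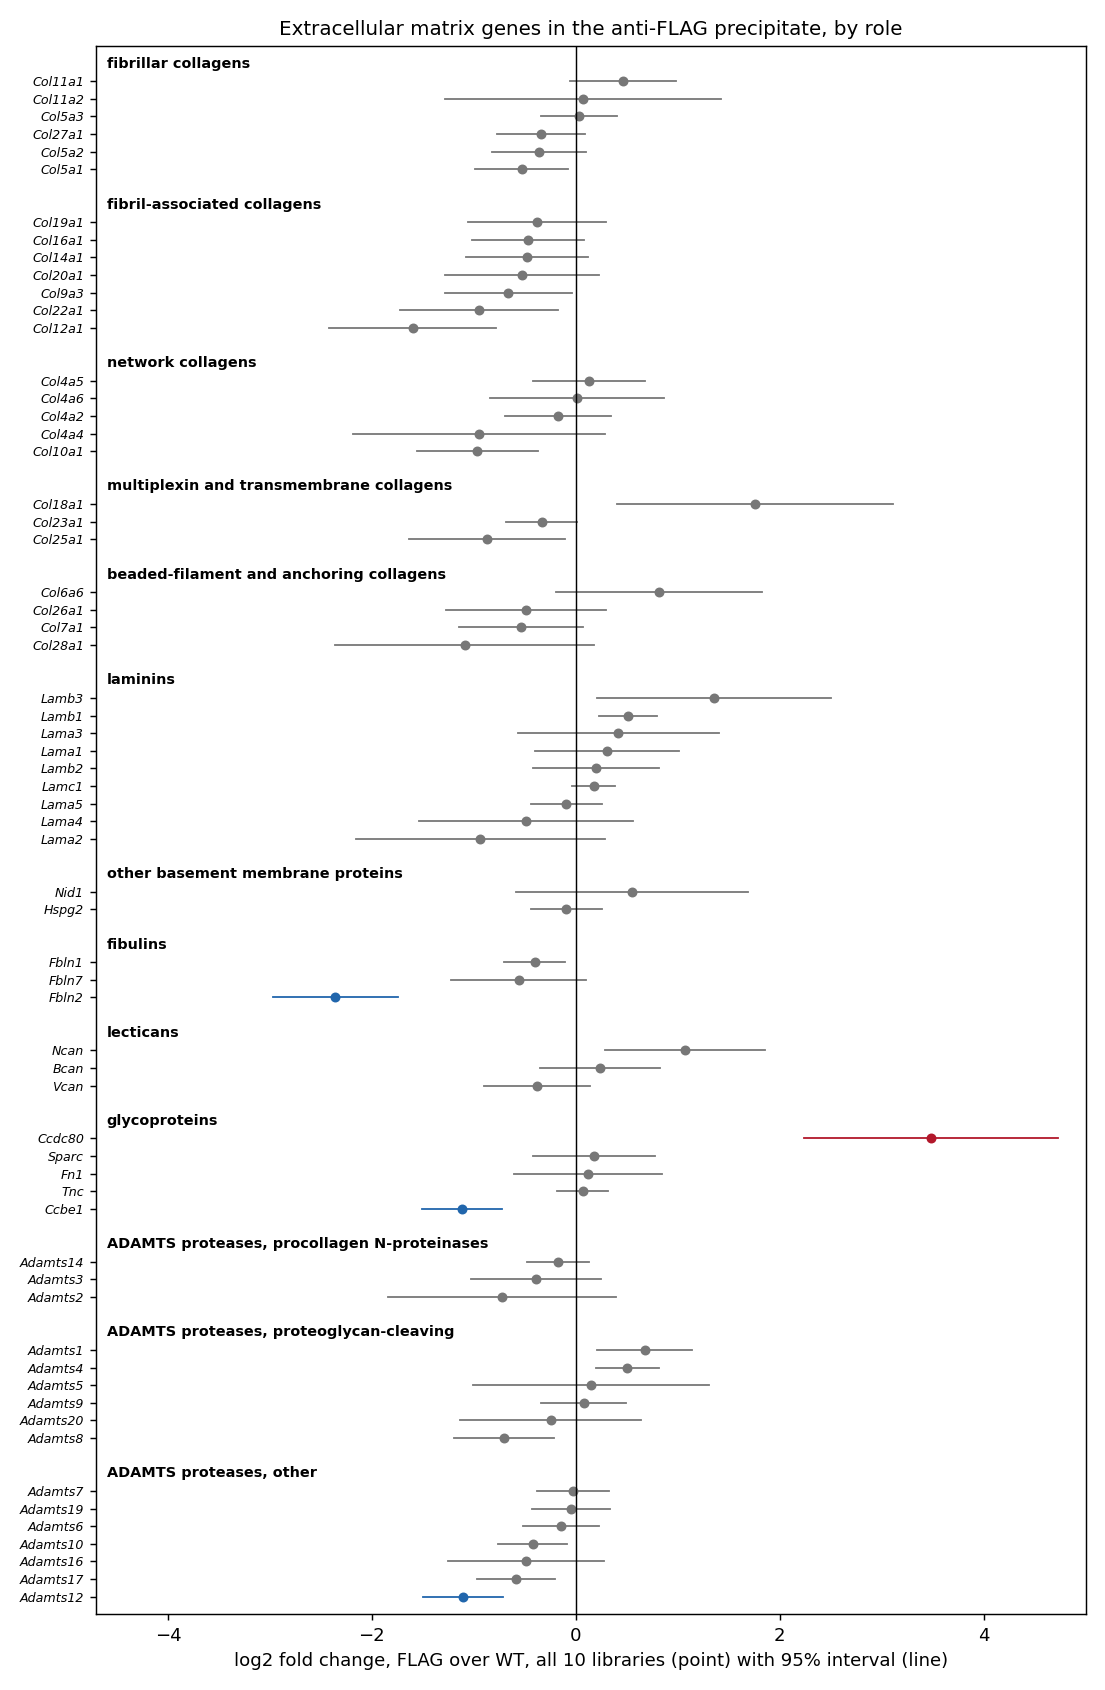
Log2 fold change of FLAG over WT across all 10 libraries for each of the 63 matrix genes, grouped by role, with points for the estimate and lines for its 95% interval. Ccdc80 (red) is the gene called higher, Fbln2, Ccbe1 and Adamts12 (blue) are those called lower, and the 7 fibril-associated collagens all lie left of 0, although 1 of them lies right of it with array weights.

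In native conditions the matrix genes leaned as a group towards lower values in FLAG. With crosslinking the values did not settle whether FLAG lay outside the spread of WT. Each FLAG library was taken as its difference from the WT mean of the protocol. A WT library was taken as its difference from the WT libraries that remained without it. In native libraries the median over the 63 genes was -0.41, -0.22 and -0.21 in FLAG against -0.09, -0.04 and 0.24 in WT. With crosslinking it was -0.02 and -0.18 in FLAG against 0.18 and -0.18 in WT. These crosslinked WT values are a single library minus its counterpart, which is wider than a distance from the WT mean. They therefore give no spread to judge the crosslinked FLAG values by. Over all libraries the median log2 fold change of the matrix genes was -0.24, against -0.03 for all genes. It was -0.09 with array weights and also with a pseudocount of 8. Of the 63 genes 24 lay above 0, against 46.8% of all genes. The median was -0.10 in the crosslinked libraries and -0.32 in the native libraries, where all genes had medians of -0.02 and -0.04. With single libraries left out it ran from -0.33 (without WT native replicate 2) to -0.16 (without WT native replicate 3) over all libraries, from -0.18 (without FLAG crosslinked replicate 1) to -0.01 (without WT crosslinked replicate 2) with crosslinking, and from -0.45 (without FLAG native replicate 2) to -0.23 (without FLAG native replicate 1) in native conditions. Of the 25 collagens 7 lay above 0 (median -0.46, but -0.25 without FLAG native replicate 1, -0.16 with a pseudocount of 8 and -0.10 with array weights). The 9 laminin chains leaned the other way, with 6 above 0 and a median of 0.20, which was 0.34 without WT native replicate 2, 0.36 with array weights, 0.11 with a pseudocount of 8 and 0.06 without FLAG native replicates 1 and 3 together. The lean was carried by genes of low level: among the 34 members with a linear mean of at least 10 the median was -0.04 and 16 lay above 0, and among the 9 collagens of that level the median was 0.01. At an unadjusted p under 0.05 with the same fold threshold, 5 matrix genes were higher (7.94% of the 63, background 7.24%) and 10 lower (15.9%, background 5.28%).

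Fibulins are calcium-binding glycoproteins that link basement membranes to elastic fibres. Fbln2 (ENSMUSG00000064080, chr6:91212455-91272540 on the plus strand, GRCm38) had the lowest fold change of the 63 genes. Its 3' untranslated region (UTR) of 661 nt holds 6 matches to the MEX-3 recognition element (MRE), the consensus bound by the MEX-3 protein of worms, and these are shown because Fbln2 is the gene whose call depended least on the processing. Capitals mark the ends of each match, the lower-case bases between them are its spacer, and the sixth match lies inside the fifth.
Fbln2 match 1, chr6:91271999-91272008: tggttggtctTGAGtcTCTAccctagaggg
Fbln2 match 2, chr6:91272203-91272218: gtgcatgGTAGcacagaccTTTAatcctag
Fbln2 match 3, chr6:91272284-91272292: gtctacactgGGAGtTCTAaccagccaga
Fbln2 match 4, chr6:91272383-91272391: gtctacgctgGGAGtTCTAaccagccaga
Fbln2 match 5, chr6:91272490-91272504: aatgataAGAGtagcacaTATAcattatt
With the last bases of the element in another order, a form described further below, this 3' UTR holds 0 matches. The matches are a description of the letters in this window and say nothing of binding.

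In the crosslinked libraries Fbln2 lay at 3.52 and 5.04 in FLAG and at 7.04 and 6.75 in WT. In the native libraries it lay at 4.60, 5.17 and 4.19 in FLAG and at 6.79, 7.06 and 6.68 in WT. All 5 FLAG libraries were thus below all 5 WT libraries, with the lowest value in FLAG crosslinked replicate 1. The log2 fold change was -2.36 ± 0.28 (SE, 95% interval -2.97 to -1.75), so WT libraries held 5.13-fold more (adjusted p = 0.0089, limma). It was called under 19 of 20 alternatives, with values from -2.55 to -1.99. Leaving out both libraries with many values at the lowest level left it at -2.21 with an adjusted p of 0.075. The other 2 fibulins were not called: Fbln1 had a log2 fold change of -0.40 ± 0.14 (SE) and Fbln7 one of -0.56 ± 0.30 (SE).

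Glycoproteins of the matrix held the highest and the third lowest fold change of the 63 genes. Ccdc80 (ENSMUSG00000022665, chr16:45093402-45127924, plus strand), which binds matrix proteins and is known from adipose tissue, lay at 3.33 and 4.17 in FLAG and at 0.74 and -1.87 in WT in the crosslinked libraries. In native conditions the values were 2.36, 4.18 and 3.28 in FLAG against 0.30, -0.47 and 1.20 in WT. All FLAG libraries lay above all WT libraries, and the WT libraries, all at a low level, differed widely among themselves. Its log2 fold change was 3.48 ± 0.56 (SE), an 11.2-fold difference (adjusted p = 0.034, limma), and this passed the test under 9 of 19 alternatives, with values from 1.09 (with a pseudocount of 8) to 4.11 (without FLAG native replicates 1 and 3). Its 3' UTR of 567 nt holds no match to the MRE. Of 4 measured genes within 500 kb of Ccdc80, 1 was also called higher, the nucleotide sugar transporter family member Slc35a5 (log2 fold change 0.76 ± 0.14 SE, adjusted p = 0.046), which was looked up after the values were seen.

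Ccbe1 (ENSMUSG00000046318), which activates the lymphatic growth factor VEGF-C, lay at 7.86 and 7.36 in FLAG against 8.71 and 8.04 in WT with crosslinking. Native values were 7.56, 7.38 and 7.45 in FLAG against 8.89, 8.51 and 9.02 in WT. The 2 genotypes did not overlap, and the gap was wider in native conditions, although the difference between protocols (-0.57 ± 0.33 SE) was not called (adjusted p = 0.97). The log2 fold change over all libraries was -1.11 ± 0.18 (SE), so WT libraries held 2.16-fold more (adjusted p = 0.034, limma), and it passed under 10 of 20 alternatives. None of 7 neighbours of Ccbe1 within 500 kb, nor any of 10 around Fbln2 or 3 around Adamts12, was called.

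The other glycoproteins showed small differences. Tnc (tenascin-C), a large protein of the SEZ made by astrocyte-like stem cells, lay between 10.3 and 10.8 in every library, and its log2 fold change of 0.07 ± 0.11 (SE) had a 95% interval that reached neither threshold. Fn1 (fibronectin) had 0.12 ± 0.33 (SE) and Sparc (osteonectin, a collagen-binding protein) had 0.18 ± 0.27 (SE).

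**Figure D2:**
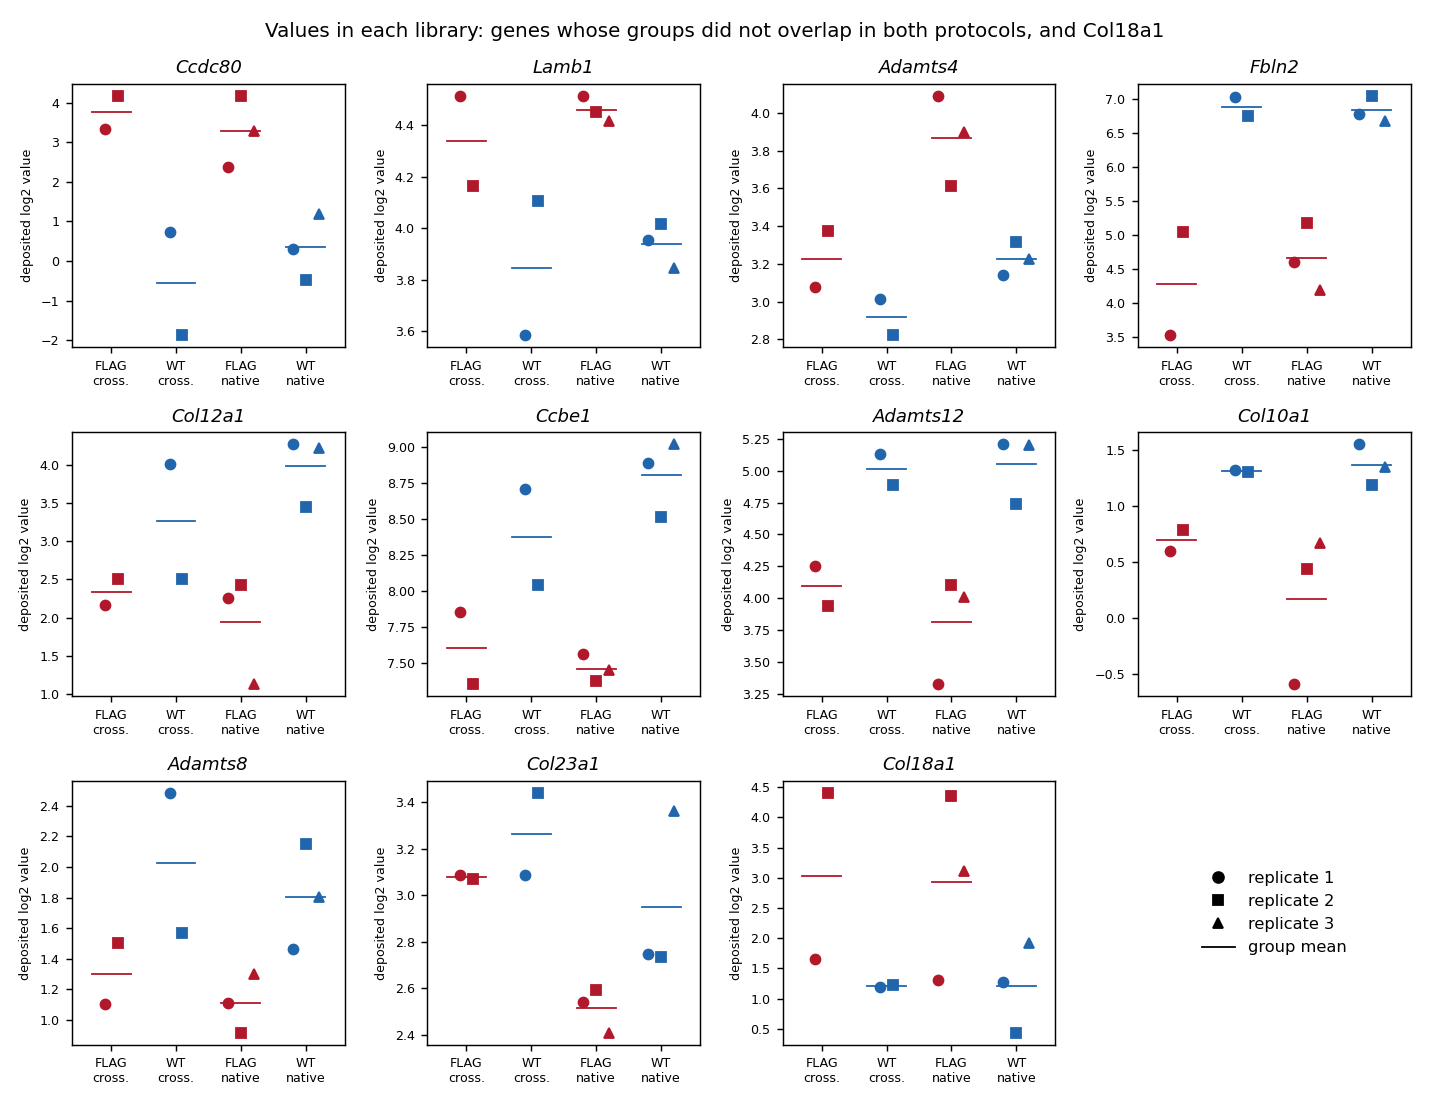
Deposited log2 value in each library for the 10 matrix genes whose FLAG and WT libraries did not overlap in either protocol, and for Col18a1, with FLAG in red, WT in blue, a symbol for each replicate number and a line for the group mean. Fbln2 lies at most at 5.17 in FLAG and at least at 6.68 in WT, while for Col18a1 replicate 2 is the highest FLAG library in both protocols.

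In both protocols 3 matrix genes had every FLAG library above every WT library (background 4.84%) and 7 had every FLAG library below (background 4.47%). The 3 were Ccdc80, Lamb1 and Adamts4, and the 7 were Fbln2, Ccbe1, Adamts12, Col12a1, Col10a1, Adamts8 and Col23a1. With crosslinking alone the counts were 6 and 11 (background 19.1% and 19.9%), and in native conditions alone they were 4 and 15 (background 8.62% and 10.8%). Of these 10 genes 6 did not pass the adjusted test.

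Fibril-associated collagens sit on the surface of collagen fibrils. All 7 measured (Col9a3, Col12a1, Col14a1, Col16a1, Col19a1, Col20a1 and Col22a1) had a fold change below 0 over all libraries, with a median of -0.53 and a range from -1.60 to -0.38, and none was called. The median was -0.34 without FLAG native replicates 1 and 3, -0.23 with array weights, where 1 of the 7 lay above 0, and -0.18 with a pseudocount of 8. Col12a1 (chr9:79598991-79718831, minus strand) was the lowest of them. It lay at 2.16 and 2.51 in FLAG and at 4.02 and 2.51 in WT with crosslinking, and at 2.26, 2.42 and 1.13 in FLAG and 4.27, 3.45 and 4.22 in WT in native conditions. FLAG replicate 2 and WT replicate 2 of the crosslinked libraries nearly met, at 2.508 and 2.512, and the native libraries were clearly apart. The log2 fold change was -1.60 ± 0.37 (SE, adjusted p = 0.087, limma), and Col12a1 was called under 3 of 19 alternatives (FLAG native replicate 2 left out, WT crosslinked replicate 2 left out, and array weights). Its 3' UTR of 2178 nt holds 2 MRE matches, shown because it is the collagen with the lowest fold change, with capitals as above and both on the minus strand.
Col12a1 match 1, chr9:79599512-79599525: tggaaaccAGAGcagctgTCTAttcagaaa
Col12a1 match 2, chr9:79599339-79599349: gaatgctctTTAGtctTTTAacaaccaca

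Fibrillar collagens, which form the banded fibres of connective tissue, showed no call among 6 measured chains, and 3 of them lay above 0. Col11a1 was the highest at 0.46 ± 0.23 (SE) and Col5a1 the lowest at -0.53 ± 0.21 (SE). The beaded-filament and anchoring collagens (4 chains, none called) ranged from Col28a1 at -1.09 ± 0.58 (SE) to Col6a6 at 0.82 ± 0.46 (SE). For Col6a6, FLAG native replicates 1 and 3 were at 8.40 and 7.99 and FLAG native replicate 2 at 6.34, against 6.44, 6.96 and 5.19 in WT, and the crosslinked libraries of both genotypes lay between 6.53 and 7.13. The high values thus belonged to the 2 libraries with the most genes at their lowest value. Without both of them the fold change of Col6a6 was 0.05, and with array weights its sign turned (-0.23).

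Network collagens build the sheets of basement membranes and of cartilage. Of 5 measured chains 2 lay above 0, and none was called. Col10a1 was below all WT libraries in every FLAG library, with 0.60 and 0.79 against 1.32 and 1.30 with crosslinking and with -0.59, 0.43 and 0.67 against 1.55, 1.19 and 1.35 in native conditions. This difference, -0.97 ± 0.27 (SE), did not pass the adjusted test (adjusted p = 0.12, limma). Col4a5 and Col4a6, chains of collagen IV that lie head to head on the X chromosome, had fold changes of 0.13 ± 0.25 and 0.01 ± 0.39 (SE). Col4a6 lay at 6.58 and 7.01 in FLAG replicate 2, at 5.17 and 4.66 in FLAG replicate 1 and between 5.74 and 5.99 in WT, so that in both protocols replicate 2 was above and replicate 1 below the WT libraries. For Col4a5, FLAG replicate 2 was likewise above WT in both protocols, at 6.77 and 6.88 against 5.99 to 6.30, whereas replicate 1 lay within the WT range with crosslinking (6.15) and below it in native conditions (5.35).

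Col18a1 (ENSMUSG00000001435, chr10:77052178-77166548, minus strand) codes for the basement membrane collagen whose C-terminal fragment is endostatin. Its values were 1.65 and 4.40 in FLAG and 1.19 and 1.22 in WT with crosslinking, and 1.32, 4.36 and 3.11 in FLAG and 1.28, 0.43 and 1.92 in WT in native conditions. FLAG replicate 1 was near WT in both protocols and overlapped it in native conditions, while replicate 2 was high in both. Its log2 fold change of 1.76 ± 0.61 (SE) was the second highest of the 63 genes and was not called (adjusted p = 0.16, limma). The transmembrane collagens Col23a1 (-0.34 ± 0.16 SE) and Col25a1 (-0.87 ± 0.35 SE) lay below 0. For Col23a1 the crosslinked libraries all but met, with 3.086 as the higher FLAG and 3.089 as the lower WT value, and the native libraries lay at 2.54, 2.59 and 2.41 in FLAG and 2.75, 2.74 and 3.36 in WT. In its 3' UTR of 1016 nt Col18a1 has 2 MRE matches, on the minus strand, shown as those of the collagen with the highest fold change, and in the other form of the element it has 0.
Col18a1 match 1, chr10:77053074-77053089: atcctgtATAGttcccattTTTAtgtaatc
Col18a1 match 2, chr10:77053036-77053043: aaggaagccaaAGAGTATAtttttctaaaa

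Laminins are trimers of an alpha, a beta and a gamma chain that start the assembly of basement membranes. Lamb1, the most common beta chain, was above WT in every FLAG library, with 4.51 and 4.16 against 3.58 and 4.11 after crosslinking. The native libraries gave 4.52, 4.45 and 4.42 against 3.95, 4.02 and 3.84. The difference was small, 0.51 ± 0.13 on the log2 scale (SE, adjusted p = 0.096, limma), and lay under the fold threshold, although Lamb1 was called (0.59) without WT crosslinked replicate 2. Its common partner Lamc1, the gamma chain of most laminins, was at 0.18 ± 0.10 (SE). Lamb3, a chain of epithelial laminin, had the highest laminin fold change (1.35 ± 0.52 SE) at a low level that ranged from -2.15 to 1.59, and Lama2, the alpha chain of muscle and vessel laminin, had the lowest (-0.93 ± 0.55 SE). No laminin chain was called with all 10 libraries. The linkers of laminin and collagen IV networks, Nid1 (nidogen-1, 0.56 ± 0.51 SE) and Hspg2 (perlecan, a heparan sulfate proteoglycan, -0.09 ± 0.16 SE), were not called either.

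Lecticans are hyaluronan-binding chondroitin sulfate proteoglycans. Ncan (neurocan) lay at 6.46 and 6.29 in FLAG and at 5.45 and 6.08 in WT with crosslinking. In native conditions FLAG replicates 1 and 3 were far higher, at 8.53 and 8.03, than replicate 2 at 6.58, and WT lay at 5.96, 6.96 and 6.08. FLAG and WT overlapped in native conditions, since FLAG replicate 2 fell under WT replicate 2. The log2 fold change was 1.07 ± 0.36 (SE, adjusted p = 0.15, limma), and it was 0.45 without FLAG native replicates 1 and 3, while Ncan was called without FLAG native replicate 2 and with array weights. Bcan (brevican, 0.24 ± 0.27 SE) and Vcan (versican, -0.38 ± 0.24 SE) did not pass the test.

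ADAMTS proteases fall into enzymes that cut lecticans, enzymes that remove the N-terminal propeptide of procollagens, and others. Adamts12 (ENSMUSG00000047497, chr15:11064790-11349231, plus strand), of the last kind, lay at 4.25 and 3.94 in FLAG and at 5.13 and 4.89 in WT with crosslinking. Native libraries gave 3.33, 4.10 and 4.01 in FLAG and 5.21, 4.74 and 5.20 in WT. FLAG lay under WT throughout, with a log2 fold change of -1.11 ± 0.18 (SE, adjusted p = 0.034, limma) or 2.15-fold more in WT, and it passed under 10 of 20 alternatives. All 7 members of this kind lay below 0 (median -0.42, but -0.27 without FLAG native replicates 1 and 3, -0.25 with array weights and -0.14 with a pseudocount of 8), and between 0 and 2 of them lay above 0 under the alternatives: 1 with TMM factors, the random block, or FLAG crosslinked replicate 2, WT crosslinked replicate 2, WT native replicate 2 or any single FLAG native library left out, and 2 with array weights or without FLAG native replicates 1 and 3 together. The 3 procollagen N-proteinases (Adamts2, Adamts3, Adamts14) lay below 0 too (median -0.39, but -0.22 without FLAG crosslinked replicate 2, -0.24 without WT crosslinked replicate 2, -0.63 without FLAG native replicates 1 and 3, and -0.21 and -0.16 with pseudocounts of 1 and 8), except Adamts14 without those 2 libraries, and none of them was called. Of the 6 proteases that cut lecticans 4 lay above 0. They included Adamts1 (0.68 ± 0.21 SE) and Adamts4 (0.51 ± 0.14 SE), whereas Adamts8 was at -0.71 ± 0.22 (SE), and none was called. For Adamts4, an aggrecanase, FLAG lay at 3.08 and 3.38 and WT at 3.01 and 2.82 with crosslinking, and FLAG at 4.09, 3.61 and 3.90 and WT at 3.14, 3.32 and 3.22 in native conditions. Adamts4 was thus above WT in every FLAG library of its protocol, and its fold change over all libraries lay under the threshold, which it passed without FLAG crosslinked replicate 1 (0.584) without being called. For Adamts8 the values were 1.11 and 1.50 against 2.48 and 1.57 in WT with crosslinking, and 1.11, 0.92 and 1.30 against 1.47, 2.15 and 1.80 in native conditions, so FLAG lay under WT in each protocol. Adamts8 shares 10.6% of its exon bases with the antisense gene Gm29724. Among 18 matrix genes that overlap another gene this was the largest share with a single gene, while Adamts9 shares 9.18% and 2.82% with 2 genes. The strand setting of the counting is not given in the sources used here.

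**Figure D3:**
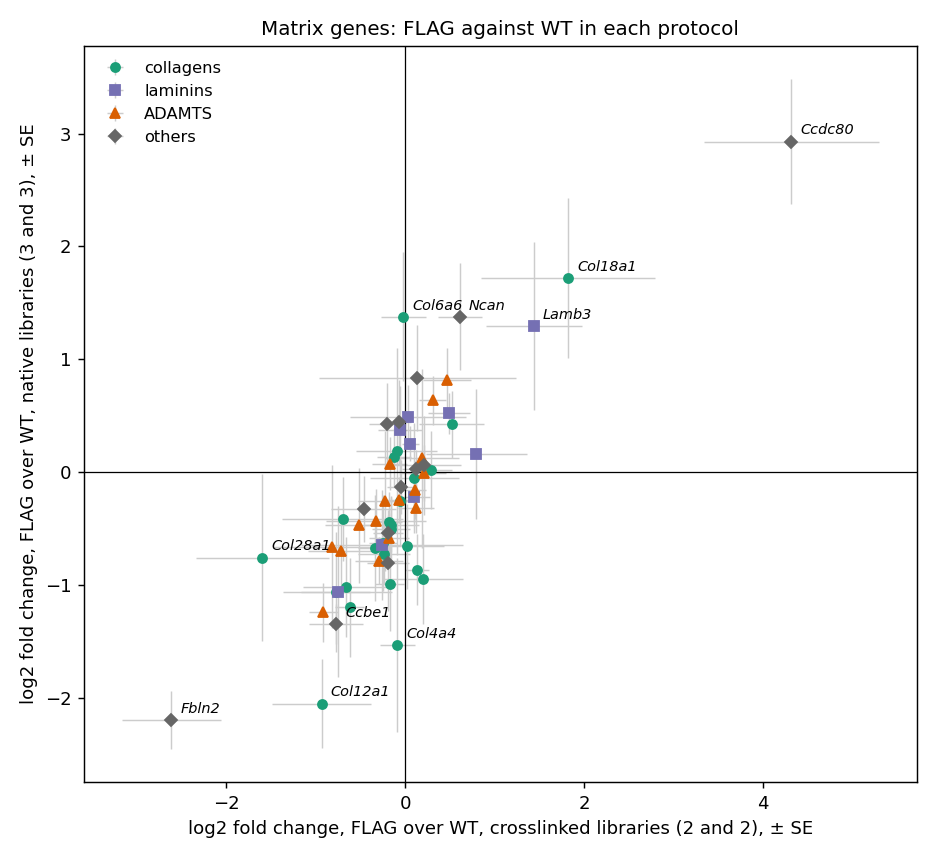
Log2 fold change of FLAG over WT for the 63 matrix genes in the crosslinked libraries (x axis, 2 FLAG and 2 WT) and in the native libraries (y axis, 3 FLAG and 3 WT), with SE bars and symbols for collagens, laminins, ADAMTS proteases and others. Ccdc80 (4.32 and 2.93) and Fbln2 (-2.61 and -2.19) lie farthest out in both protocols.

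No matrix gene differed in its fold change between native and crosslinked libraries by the interaction test (0 of 63 called, lowest adjusted p = 0.97 by limma, background 0.0% in each direction), and at an unadjusted p under 0.05 with the same fold threshold there were 0 higher (background 0.233%) and 1 lower (background 0.182%). For Ccdc80 the difference was -1.39 ± 1.12 and for Col18a1 -0.10 ± 1.31 (SE).

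Levels were also compared between the protocols. Native against crosslinked libraries, with genotype as a covariate, gave 0 matrix genes called higher (background 2.94%) and 0 called lower (background 1.17%), and at an unadjusted p under 0.05 with the same fold threshold there were 4 higher (background 7.06%) and 1 lower (background 4.58%). Sparc came nearest. It lay between 3.90 and 4.42 in the 4 crosslinked libraries and between 4.48 and 6.09 in the 6 native libraries, and was the 1 matrix gene with all native above all crosslinked libraries (background 4.34%), while 0 had them all below (background 5.56%). Its log2 difference was 1.06 ± 0.28 (SE, adjusted p = 0.058, limma). Nid1 had the widest difference of the 63 genes, 1.68 ± 0.53 (SE, adjusted p = 0.10), with crosslinked values from -2.37 to -0.03 and native values from -0.47 to 1.35, which overlapped. Col28a1 followed with 1.48 ± 0.59 (SE), and Col11a2, a fibrillar chain of cartilage, lay lowest with -1.10 ± 0.62 (SE).

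Levels of different genes were compared per kb of exon, as the deposited log2 value minus the log2 of the exon length in kb. This takes it that the deposited values were not already scaled by length, which is not given in the sources used here. Tnc stood first with 7.67 ± 0.16 (SD over the 10 libraries), above Adamts6 with 5.52 ± 0.29, and their ranges did not meet. Next came Lamc1 (4.86 ± 0.15), Bcan (4.73 ± 0.51), Adamts14 (4.64 ± 0.22), Ccbe1 (4.64 ± 0.65) and Adamts9 (4.35 ± 0.30), whose values overlapped. The highest libraries of Ccbe1 (5.58), Bcan (5.25) and Lamc1 (5.13) also reached into the range of Adamts6 (4.96 to 5.83). Ncan followed (3.80 ± 0.96), then Col6a6 (3.67 ± 0.89) and Col4a5 (3.48 ± 0.42). FLAG native replicates 1 and 3 of Ncan (5.68 and 5.18) and FLAG native replicate 1 of Col6a6 (5.20) likewise reached into the range of Adamts6. The median over the 63 genes was 0.66, and the lowest levels were those of Adamts5 (-3.57 ± 0.85) and Adamts2 (-3.81 ± 0.84). For the genes called in FLAG against WT, a mean over both genotypes describes neither. With crosslinking and in native conditions the mean level per kb of Ccbe1 was 4.17 and 4.03 in FLAG and 4.94 and 5.37 in WT, and that of Fbln2 was 1.61 and 1.98 in FLAG and 4.22 and 4.17 in WT. Ccdc80 stood at 1.65 and 1.17 in FLAG and at -2.67 and -1.76 in WT. Single libraries of Adamts12 lay between -0.12 and 0.81 in FLAG and between 1.29 and 1.76 in WT. Per kb of the longest transcript the order after Tnc and Adamts6 changed to Ccbe1 (5.36), Adamts9 (5.25), Bcan (5.10), Lamc1 (4.97), Adamts14 (4.65) and Adamts19 (4.45), the last of which was in rank 13 by exon length.

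**Figure D4:**
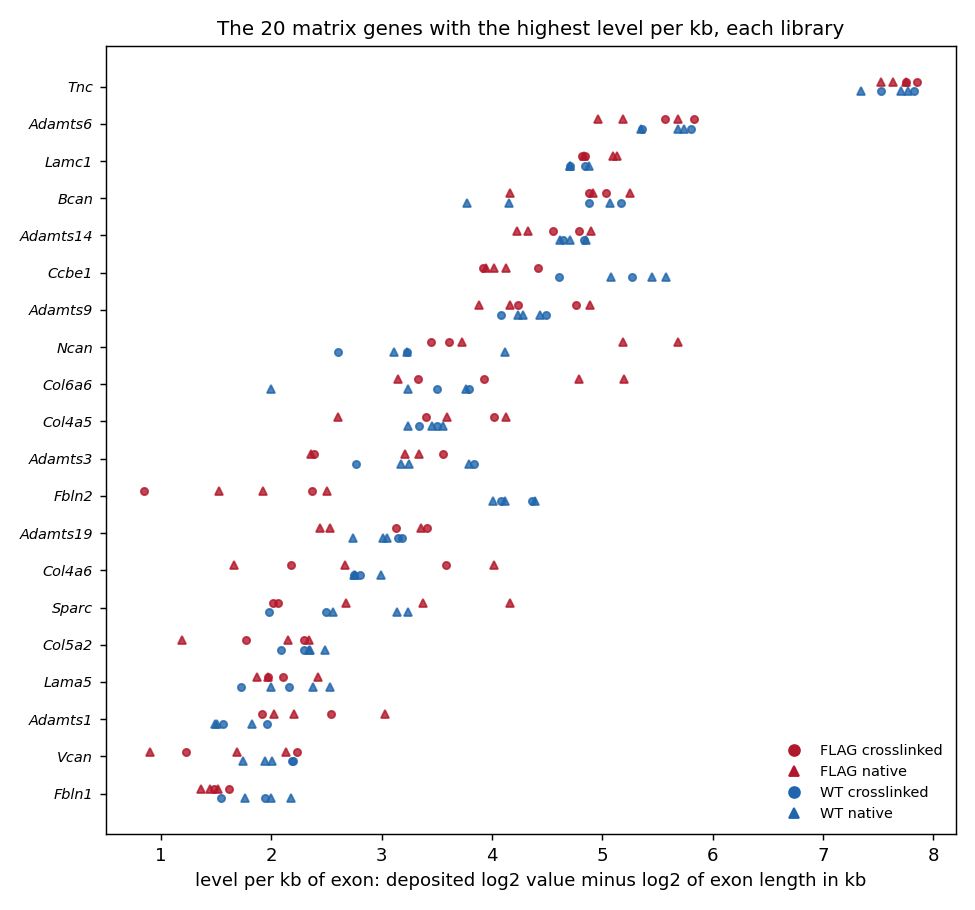
Level per kb of exon (deposited log2 value minus the log2 of exon length in kb) in each library for the 20 matrix genes with the highest mean, with FLAG in red, WT in blue, circles for crosslinked and triangles for native libraries. Tnc stands apart at the top, and Fbln2 and Ccbe1 show FLAG libraries to the left of WT libraries.

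The MRE was looked for in the 3' UTR on the transcribed strand only, in both forms that the study gives, which differ in the order of the last bases. In the form of its methods, 52 of the 63 matrix genes held a match (82.5%, 95% exact Clopper-Pearson interval 70.9% to 90.9%), against 79.1% of 12177 protein-coding genes. In the form of its results the count was 45 (71.4%, against 79.3%). Per kb of 3' UTR the first form occurred 2.43 times in matrix genes and 2.67 times in protein-coding genes. The 11 genes without a match were Ccdc80, Adamts4, Adamts10, Hspg2 and the laminin chains Lama1, Lama2, Lama4, Lama5, Lamb1, Lamb2 and Lamb3. These laminin 3' UTRs are short, from 110 to 368 nt, and under 500 nt of 3' UTR the motif was found in 3 of 10 matrix genes and in 33.6% of protein-coding genes. The 3 genes with all FLAG libraries above WT in both protocols (Ccdc80, Lamb1 and Adamts4) had no match in this form, in 3' UTRs of 567, 151 and 1459 nt, and 0, 0 and 1 match in the other. Of the 7 genes with all FLAG libraries below WT, Fbln2, Adamts12 and Ccbe1 had 6, 14 and 15 matches in this form and 0, 13 and 13 in the other, in 661, 3554 and 4432 nt. Col12a1, Col10a1, Adamts8 and Col23a1 had 2, 2, 7 and 6 in this form and 6, 2, 6 and 10 in the other, in 2178, 1009, 3152 and 3852 nt. These counts describe 10 genes chosen by the order of their libraries and were not tested.

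Other genes that act on the matrix are not members and were listed by function. Of 22 measured receptors (integrins, syndecans, dystroglycan, discoidin receptors and CD44) 1 was called higher in FLAG, Itga4, the alpha chain of a fibronectin receptor (1.14 ± 0.17 SE, adjusted p = 0.023, limma), against 0.264% of all genes, and none lower, against 0.233%. Of 12 matrix metalloproteinases and their inhibitors 1 was called higher, Mmp14, a membrane-bound collagenase (1.30 ± 0.22 SE, adjusted p = 0.037, limma), and none lower, against the same 0.264% and 0.233% of all genes. None of 19 collagen-modifying enzymes and chaperones was called higher (against 0.264%) or lower (against 0.233%), and their median log2 fold change was -0.14.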

How the data were processed

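Per the labels, RNA from anti-FLAG precipitates was sequenced from 10 libraries. According to the methods and the submitters' processing notes, the authors trimmed reads, mapped them with HISAT2 to GRCm38, counted them per gene with featureCounts and normalised them, and deposited 1 matrix of log2 values for 15899 genes. It holds no counts, so depth is unknown and no count model was fitted. No column was left out. The members, role groups and lists were chosen with earlier results of these data known.

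Log2 values were fitted in limma 3.58.1 (R 4.3.3; lmFit, eBayes with a trend) with Benjamini-Hochberg adjustment over all genes, for 5 comparisons, and the fit was tested on simulated data. Alternatives were pseudocounts of 1 and 8, a minimum linear mean of 10, quantile normalization, TMM factors, array weights, 1 fit of 4 groups, the replicate number as a block and each library left out in turn. Alternatives chosen after seeing the data were a crossed pairing, blocks of genotype and number, and leaving out FLAG native replicates 1 and 3 together. Same-numbered FLAG and WT libraries deviated in opposite directions (correlations of deviations over genes from -0.43 to -0.15), so the numbers did not pair the genotypes. Same-numbered libraries of 1 genotype deviated together across protocols (0.154 to 0.388, in 4 of 4 pairs), which comes from the data and not from the labels. The 2 crosslinked libraries of a genotype deviate in mirrored ways, so these pairs are not independent. A pair of unlike numbers, WT crosslinked replicate 1 and WT native replicate 3, reached 0.232, above both FLAG pairs (0.178 and 0.154).

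Genes named were those called, those with no overlap in both protocols, the extremes of each role group, those chosen by single name and the 5 with the highest level per kb; others were named after their values were seen. A gene of the marker lists was left out of the text. Gene models, 3' UTRs and sequences came from GENCODE M21 (GRCm38), in which 15864 genes were found, and 58 of the 63 members had the start and end of the matrix. Tables and figures were made with matplotlib 3.10.9, pandas 2.3.3, scipy 1.17.1 and numpy 2.4.6 under Python 3.11.15.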

Additional observations from a re-analysis of the deposited data

How the results depend on the processing

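With a pseudocount of 8 the median log2 fold change of the matrix genes was -0.099 in native and -0.091 in all libraries. With a minimum linear mean of 10 it was -0.088 and -0.037. That setting gave 0 matrix genes called lower in native libraries (0.101% of the genes tested) and 0 called higher over all libraries (0.187%). TMM factors gave 1 matrix gene called lower in native libraries (0.0629% of all genes). A single fit of 4 groups gave 0 matrix genes called lower in native libraries (0.0189% of all genes). Over all libraries it gave 0 higher (0.0503%) and 1 lower (0.0566%). Array weights, which ranged from 0.124 to 10.2, gave 5 higher and 9 lower in native libraries (10.4% and 12.1% of all genes), 8 higher and 14 lower in all libraries (6.95% and 6.06% of all genes, median of the matrix genes -0.090), and 2 higher and 5 lower for native against crosslinked libraries (6.25% and 6.5%). Adamts8, Col10a1 and Col18a1 were called over all libraries under no other alternative than array weights.

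Replicate numbers did not pair the genotypes. The replicate block gave 1 matrix gene called lower in native libraries (0.0818% of all genes) and 0 called higher over all libraries (0.0881%). A crossed pairing of the crosslinked libraries, chosen after seeing the data, gave 0 and 0 (0.0% and 0.0% of all genes). The random block of genotype and number gave 0 higher (0.044% of all genes) and 1 lower (0.0503%) over all libraries, and the fixed block of these changed no call between protocols. Leaving out FLAG native replicates 1 and 3 together gave 0 higher (0.0503% of all genes) and 0 lower (0.0629%) over all libraries.

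Leaving out 1 library at a time gave 0 to 2 higher and 1 to 4 lower over all libraries. The count higher was 0 without FLAG crosslinked replicate 1 or 2, FLAG native replicate 3, WT crosslinked replicate 1 or WT native replicate 1 or 2, and 2 without FLAG native replicate 2 (3.25% of all genes) or WT crosslinked replicate 2 (1.14%), and both of these also gave 4 lower (1.17% and 1.38% of all genes). The count lower was 1 without FLAG crosslinked replicate 2, FLAG native replicate 3, WT crosslinked replicate 1 or any 1 WT native library (between 0.044% and 0.0755% of all genes). In native libraries the range was 0 to 5 higher and 0 to 10 lower, the most being without FLAG native replicate 2 (9.12% and 10.8% of all genes), with 0 lower without FLAG native replicate 1 or 3 or WT native replicate 1 or 3, and for native against crosslinked libraries 0 to 2 higher, the 2 being without FLAG native replicate 2 (4.83% of all genes).

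The sign turned for Col6a6, from 0.82 to -0.23 with array weights, and for genes nearer 0. With array weights the fold change was 0.016 for Adamts6, -0.38 for Sparc and -0.024 for Tnc. Without FLAG native replicates 1 and 3 it was 0.034 for Adamts14, 0.11 for Adamts6, -0.11 for Bcan, -0.24 for Fn1 and -0.24 for Sparc. With single libraries left out it ranged from -0.045 to 0.37 for Col4a5, from -0.15 to 0.37 for Fn1 and from -0.066 to 0.34 for Sparc. By the longest transcript the median level per kb was 0.84. The causes were not tested. Unknown depth limits all genes of low level, and 2 or 3 libraries a group limit the power of each comparison.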
